A study of Mus musculus with 6 samples.

Results

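The solute carrier genes described here were read out in 166 of the 23282 gene rows measured in mouse astrocytes with or without overexpressed JAG1, a membrane ligand of Notch receptors. A row was taken when its symbol began with SLC, a family number, the letter A and a member number, or was GM14085, and when its mean raw count over the 6 libraries was at least 10. In all, 345 rows matched by symbol, of which 173 lay under that mean, 67 of them with no read in any library, and 8 were left out by name, 6 of which reached it (Slc1a2, Slc1a3, Slc2a1, Slc2a3, Slc16a1, Slc16a3, Slc7a11 and Slc38a4). The members were therefore chosen by their mean counts over both groups, and GM14085 was named in the rule with its fall already known, so it is described without a test and the counts below cover the other 165. The row just inside the limit was Slc26a6, with raw counts of 14, 14 and 6 in the control libraries and 4, 16 and 11 in the JAG1 libraries, and the next was Slc5a5, with 13, 21 and 22 against 3, 2 and 6. Just outside lay Slc12a5, with 17, 9 and 14 against 12, 3 and 0, and Slc37a2, with 13, 10 and 16 against 4, 8 and 2.

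Solute carriers are membrane proteins that move amino acids, sugars, ions, metals, vitamins and other small molecules across the cell surface and the membranes of organelles. They work as exchangers, cotransporters or passive carriers, and most do not split ATP themselves but use gradients that ion pumps set up. In the brain, astrocytes are known for taking up glutamate and potassium and for passing glutamine, lactate and other nutrients to neurons through such carriers.

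All libraries came from an Ink4a-/- (Ink4a/Arf-/-) murine astrocyte line, derived from brain and grown in serum, so that control and JAG1 cells shared the deletion. The control cells carried the empty vector pcDNA3.1-puro (3 libraries, given the genotype WT in the labels, which was read as without JAG1), and the JAG1-overexpressing cells carried pcDNA3.1-JAG1-puro (3 libraries). RNA was sequenced from the 3' ends of transcripts, so the number of reads of a gene does not grow with transcript length. Neither the labels nor the methods tell if replicate libraries were separate cultures, so the p-values below measure only the spread among these libraries, which may be technical.

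The libraries held between 14341634 and 20489062 counts, and the 166 carriers took from 0.828 to 0.893% of them. Normalised read counts are given in CPM, counts scaled to a common library total after TMM normalisation, and differences as log2 fold changes, JAG1 over control, with the standard error (SE) and the adjusted p of edgeR's quasi-likelihood test, which called a gene at an adjusted p under 0.05. Jag1 itself stood at 10.3 ± 1.18 CPM in control and 14.2 ± 0.862 CPM in JAG1 libraries (SD, n = 3), a log2 difference of 0.46 ± 0.11 (SE). Whether the vector carries the mouse 3' end that this method reads was not given. Among 10 astrocyte markers, 5 (Gfap, Aqp4, Fabp7, Slc1a2 and Slc1a3) were at 3 counts or fewer in every library, with Gfap and Aqp4 at 0 throughout. Of the others 4 were lower, as were 27.7% of all tested genes, and Vim was not called (means of 3106 CPM in control and 3213 CPM in JAG1 libraries). The summed level of the 10, most of it Vim, ranged from 3172 to 3666 CPM in control and from 3292 to 3357 CPM in JAG1 libraries. The summed level of 6 fibroblast and mural cell markers ranged from 625 to 633 CPM in control and from 211 to 243 CPM in JAG1 libraries, with 4 of them lower. Its part in the results below was not tested. In bulk RNA, fewer cells of a type and less RNA per cell cannot be told apart.

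Of the 165 carriers, 55 were higher and 56 lower in JAG1 cells, 33.3% and 33.9% of them, while over all 11712 genes tested 27.4% were called higher and 27.7% lower, and 55.1% in either direction. The 54 others did not pass the test, with log2 differences from -0.83 to 0.60. At least 2-fold changes with a call were found for 11 carriers upward and 25 downward, against 5.46% and 8.49% of all genes. Of these, 3 and 13 had a mean count under 10 in 1 group, and among the 148 carriers with at least 10 in both groups 8 rose and 12 fell by that much, 5.41% and 8.11% of them. The shares over all genes were not limited in this way, so they are no like comparison for these 148. The median log2 fold change of the carriers was 0.02, and that of all genes was 0.00386. The share called rose with the read number, with the same share over all tested genes in brackets: 21 of 37 carriers with a mean count from 10 to 50 were called (46.2%), 40 of 70 from 50 to 500 (53.3%) and 50 of 58 above 500 (59.4%). The bins under 500 include the 17 carriers with a mean count under 10 in 1 group, of which 16 were called. These had to differ, so the counts of those bins are no like comparison with the shares in brackets.

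For 17 carriers 1 of the groups had a mean count under 10, and these reached the limit through the other group, so they had to differ, and 16 of them were called (3 higher, 13 lower). The higher ones were Slc6a15, Slc6a17 and Slc7a2. The lower ones were Slc28a2, Slc2a4, Slc13a3, Slc22a18, Slc40a1, Slc4a8, Slc4a4, Slc5a5, Slc3a1, Slc7a3, Slc25a27, Slc46a1 and Slc22a13b-ps, and Slc30a3 was not called. The counts by group and family below include them. Among the 148 with at least 10 counts in both groups, 52 were higher and 43 lower. Every JAG1 library lay above every control library for 61 carriers and below for 61, where 31.1% and 30.9% of all genes did so. Summed over the 166 carriers, the level went from 8515 ± 125 CPM in control to 8818 ± 67.2 CPM in JAG1 cells (SD, n = 3).

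**Figure D1:**
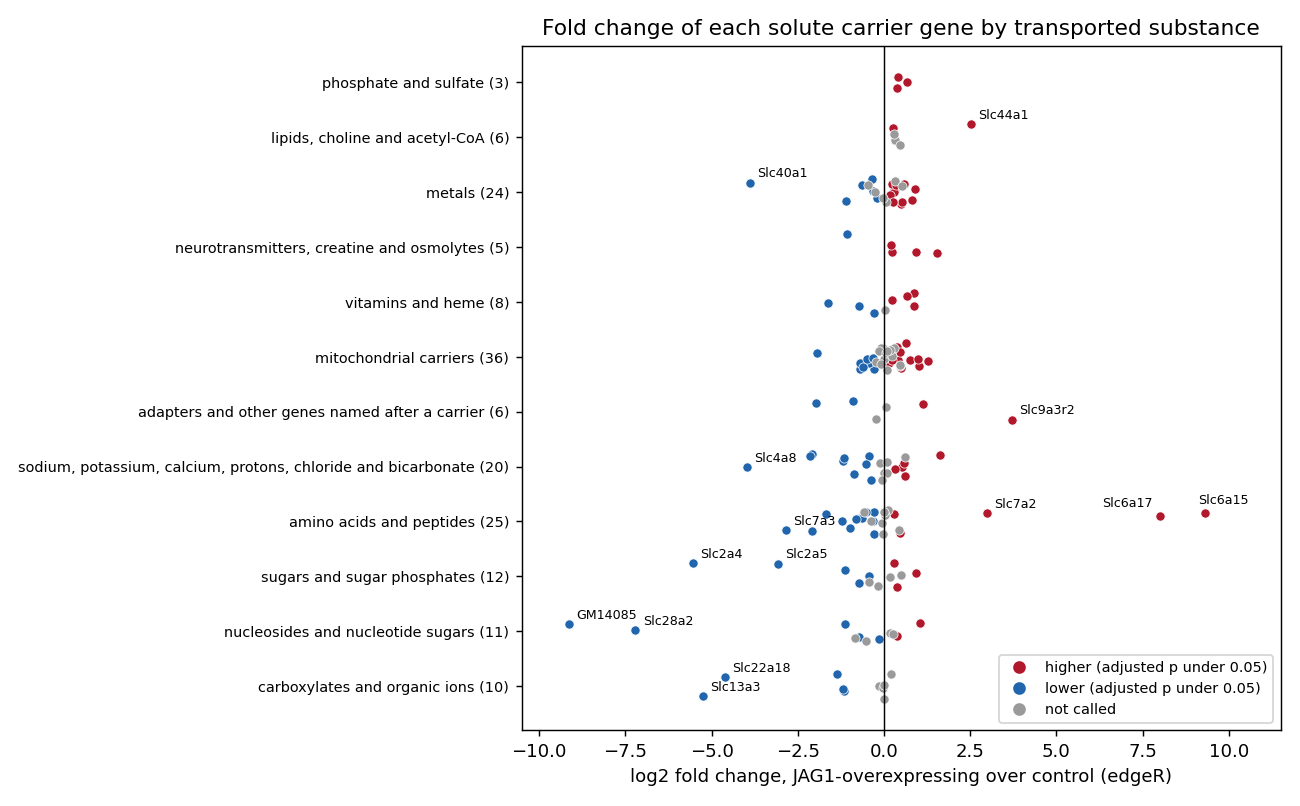
Log2 fold change of each of the 166 solute carrier genes (x axis, JAG1-overexpressing over control) by the substance it carries (y axis, number of genes in brackets); each point is 1 gene, coloured by its call. The amino acid group runs from -2.85 (Slc7a3) to 9.32 (Slc6a15), the 3 phosphate and sulfate carriers all lie above 0, and the fitted values of genes at or near 0 reads in 1 group (Slc6a15, Slc6a17, GM14085, Slc28a2) are no bounds on their folds.

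The carriers were put in 12 groups by what they carry. Beside the group counts below stand the shares over all tested genes, 27.4% higher and 27.7% lower, or 5.46% and 8.49% by at least 2-fold. Members were named by size of change and by level within each group. Those named beyond this, to complete a group or a family, were chosen after their values were seen.

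The deepest falls were those of a pair of neighbouring nucleoside carriers on chromosome 2. GM14085, listed by RefSeq as Slc28a2b, and Slc28a2, a sodium-coupled carrier of purine nucleosides, lie at positions 122484941 to 122528040 and 122426357 to 122461152 of GRCm38.p6. GM14085 had 506, 489 and 512 reads in the control libraries and 1, 1 and 0 in the JAG1 libraries, a 663-fold lower level with an exact 95% counting interval from 183 to 5483. Slc28a2 had 73, 79 and 74 reads against 0, 0 and 1, a 199-fold lower level with a counting interval from 35.4 to 7894. Both were thus read in each control library and nearly absent from each JAG1 library. Their transcripts are 95.7 to 95.9% identical, depending on the Slc28a2 transcript, and 97.6% identical in the last 500 bases, where this method reads. From 59.6 to 61.2% of 50-base windows there are shared exactly, so how the reads were split between them is uncertain. The related Slc28a1 and Slc28a3 had at most 5 reads in any library and were not tested.

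The promoters of this pair are shown because the copies fell together, with that of Slc30a4, a zinc carrier further along the same stretch of chromosome 2 that rose, and those of Slc2a5 and Slc4a8, a sugar and a bicarbonate carrier with some of the largest falls. Each run covers 250 bases before to 50 after a RefSeq transcript start on GRCm38.p6, and capitals mark GTCTG or its reverse complement CAGAC, the core of the element that SMAD proteins bind.
Slc28a2, chr2:122426185-122426484, plus strand: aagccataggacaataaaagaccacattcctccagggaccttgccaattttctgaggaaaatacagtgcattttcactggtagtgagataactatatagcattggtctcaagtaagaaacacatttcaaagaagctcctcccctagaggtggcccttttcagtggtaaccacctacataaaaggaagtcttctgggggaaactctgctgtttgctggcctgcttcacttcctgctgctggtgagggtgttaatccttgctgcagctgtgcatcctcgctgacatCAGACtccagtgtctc
Slc28a2b, chr2:122484691-122484990, plus strand: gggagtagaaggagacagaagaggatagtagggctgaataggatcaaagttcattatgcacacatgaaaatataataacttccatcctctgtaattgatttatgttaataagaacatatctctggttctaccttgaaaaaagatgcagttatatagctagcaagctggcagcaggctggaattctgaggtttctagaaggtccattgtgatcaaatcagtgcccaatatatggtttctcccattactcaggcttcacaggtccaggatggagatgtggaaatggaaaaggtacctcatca
Slc30a4, chr2:122702614-122702913, minus strand: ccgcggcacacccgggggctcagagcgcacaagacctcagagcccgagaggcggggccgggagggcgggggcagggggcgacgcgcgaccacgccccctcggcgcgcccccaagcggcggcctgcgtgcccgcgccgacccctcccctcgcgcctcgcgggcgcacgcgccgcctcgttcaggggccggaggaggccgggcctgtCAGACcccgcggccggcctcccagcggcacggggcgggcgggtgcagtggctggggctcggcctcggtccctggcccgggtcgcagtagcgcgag
Slc2a5, chr4:150119094-150119393, plus strand: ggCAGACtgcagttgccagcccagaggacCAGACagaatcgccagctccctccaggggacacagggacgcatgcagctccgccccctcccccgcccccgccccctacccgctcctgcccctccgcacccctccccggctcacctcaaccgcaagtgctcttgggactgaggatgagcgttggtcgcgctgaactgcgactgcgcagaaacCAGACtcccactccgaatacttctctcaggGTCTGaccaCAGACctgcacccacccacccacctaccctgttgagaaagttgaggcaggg
Slc4a8, chr15:100761497-100761796, plus strand: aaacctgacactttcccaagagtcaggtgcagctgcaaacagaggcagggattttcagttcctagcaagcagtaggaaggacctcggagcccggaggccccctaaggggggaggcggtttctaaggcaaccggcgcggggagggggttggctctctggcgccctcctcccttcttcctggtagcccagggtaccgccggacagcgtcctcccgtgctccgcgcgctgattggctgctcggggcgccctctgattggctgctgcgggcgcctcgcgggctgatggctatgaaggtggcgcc
The window of Slc2a5 held 5 matches, those of Slc28a2 and Slc30a4 held 1 each, and those of Slc28a2b and Slc4a8 held 0. GTCTG or CAGAC stood in 49.6% of all 32851 RefSeq promoter windows of this length, so a match is common. Guanine and cytosine made up 46.7% of the Slc28a2 window and 40% of the Slc28a2b window, but 81.7% of that of Slc30a4. A window was found for only 124 of the 166 members. With GM14085 left aside and 1 window per gene, a match stood in 21 of 42 higher and 18 of 35 lower members. It stood in 21 of 46 members not called and in 49.7% of all genes.

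Of 10 carriers of nucleosides and nucleotide sugars, GM14085 left aside, 2 were higher and 4 lower, Slc28a2 being one of the latter. The equilibrative nucleoside carriers of the cell surface rose. Slc29a1 stood at 84.2, 82.9 and 81.9 CPM in control and 111, 102 and 112 CPM in JAG1 libraries, and Slc29a2 at 9.18, 7.46 and 5.75 against 15.7, 16.7 and 13.7 CPM, log2 differences of 0.38 ± 0.06 and 1.04 ± 0.15 (SE, edgeR adjusted p = 0.000193 and 0.000168). Slc29a3, which works in lysosomes, went the other way, from 50.6 ± 1.27 to 30.3 ± 3.55 CPM (SD, n = 3), and so did the nucleobase carrier Slc43a3, from 43.4 ± 3.91 to 19.9 ± 1.83 CPM (SD, n = 3). No library of 1 group overlapped the other for these 4 genes. Of the 5 Golgi carriers of the Slc35a family, which bring nucleotide sugars in for glycosylation, only Slc35a4 was called, at -0.14 ± 0.06 (SE, edgeR adjusted p = 0.0455), and it lost the call when any 1 library but control replicate 3 was left out (adjusted p from 0.0734 to 0.143).

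Among 25 carriers of amino acids and peptides, 12 were lower and 5 higher. Of these, Slc3a1 and Slc7a3 (lower) and Slc6a15, Slc6a17 and Slc7a2 (higher) reached the count limit through 1 group only. The summed level of the 25 was 1217 ± 22.4 CPM in control and 1069 ± 23.8 CPM in JAG1 cells (SD, n = 3). Without Slc38a1 and Slc38a2, which lie on chromosome 15 and were set aside after their values were seen, the sum was 772 ± 18 and 800.3 ± 16.9 CPM (SD, n = 3), so that these 2 genes carried its fall. In the Slc38 family, known for sodium-coupled carriers of glutamine and other neutral amino acids, the 6 members taken here (Slc38a4 was left out by name) had negative differences, and 5 passed the test. Slc38a2, the most abundant of the group, stood at 243, 232 and 224 CPM in control and 139, 127 and 132 CPM in JAG1 libraries, and Slc38a1 at 208, 208 and 220 against 144, 126 and 138 CPM. Both groups of libraries were well apart, with log2 differences of -0.81 ± 0.06 and -0.64 ± 0.06 (SE, edgeR adjusted p = 3.65e-07 and 4.47e-06). Slc38a6 fell further, from 6.06 ± 0.521 to 3.07 ± 0.549 CPM (SD, n = 3), while Slc38a9, the lysosomal arginine sensor, did not pass (-0.36 ± 0.17, SE, edgeR adjusted p = 0.0915).

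The glutamine exchanger Slc1a5 fell from 76.1 ± 1.63 to 61 ± 3.67 CPM and its relative Slc1a4, a carrier of alanine and serine, from 37.6 ± 1.45 to 31 ± 3.07 CPM (SD, n = 3). Slc1a4 lost its call when JAG1 replicate 3 was left out (edgeR adjusted p = 0.0754). Slc43a2, a carrier of large neutral amino acids that needs no sodium, stood at 5.63, 5.80 and 5.23 CPM against 1.35, 0.963 and 1.52 CPM, a log2 difference of -2.10 ± 0.19 (SE, edgeR adjusted p = 3.87e-06). The peptide carriers Slc15a1 and Slc15a3 were also lower, at -1.67 ± 0.22 and -0.68 ± 0.13 (SE), and the lysosomal Slc15a4 was not called (0.12 ± 0.06, SE).

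Heavy and light chains of the heteromeric amino acid exchangers differed among themselves. Slc3a2, the heavy chain that carries them to the cell surface, stood at 134, 120 and 116 CPM in control and 120, 142 and 115 CPM in JAG1 libraries, and these groups overlapped (0.03 ± 0.08, SE, edgeR adjusted p = 0.813). Its light chain Slc7a5, which takes up leucine and other large amino acids, rose from 93.5, 93.5 and 94.4 to 134, 114 and 137 CPM (0.45 ± 0.07, SE, edgeR adjusted p = 0.000246). The light chains Slc7a6 (0.01 ± 0.08, SE) and Slc7a7 (-0.59 ± 0.39, SE) were not called, and Slc7a8 and Slc7a10 had at most 1 read per library. Thus 1 of these 3 light chains rose, and Slc7a11, a further light chain, was left out by name. The cationic amino acid carriers, which need no heavy chain, also moved apart: Slc7a1 rose from 150 ± 9.35 to 185 ± 7.56 CPM (SD, n = 3), the scarce Slc7a2 rose from 0.191 ± 0.152 to 1.54 ± 0.563 CPM, and Slc7a3 fell from 1.30 ± 0.249 to 0.172 ± 0.0988 CPM. The last pair rest on few reads, with group mean counts under 10 in 1 group each.

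The largest rise was that of Slc6a15, a sodium-coupled carrier of branched-chain amino acids and proline known from neurons. It had 0, 0 and 1 reads in the control libraries and 277, 260 and 243 in the JAG1 libraries, an 886-fold higher level with an exact 95% counting interval from 159 to 35036. The related Slc6a17, a vesicular carrier of neutral amino acids, had 0 reads in each control library and 39, 15 and 37 in the JAG1 libraries, at least 11.2-fold higher when control is set to 3 counts per library. Both were therefore read almost only in JAG1 libraries. The summed level of 7 neuron markers ranged from 96.9 to 107 CPM in control and from 58.3 to 61.4 CPM in JAG1 libraries, with Map2 higher, Tubb3 lower, and Rbfox3, Snap25, Syt1, Slc17a7 and Gad1 at 1 read or fewer.

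**Figure D2:**
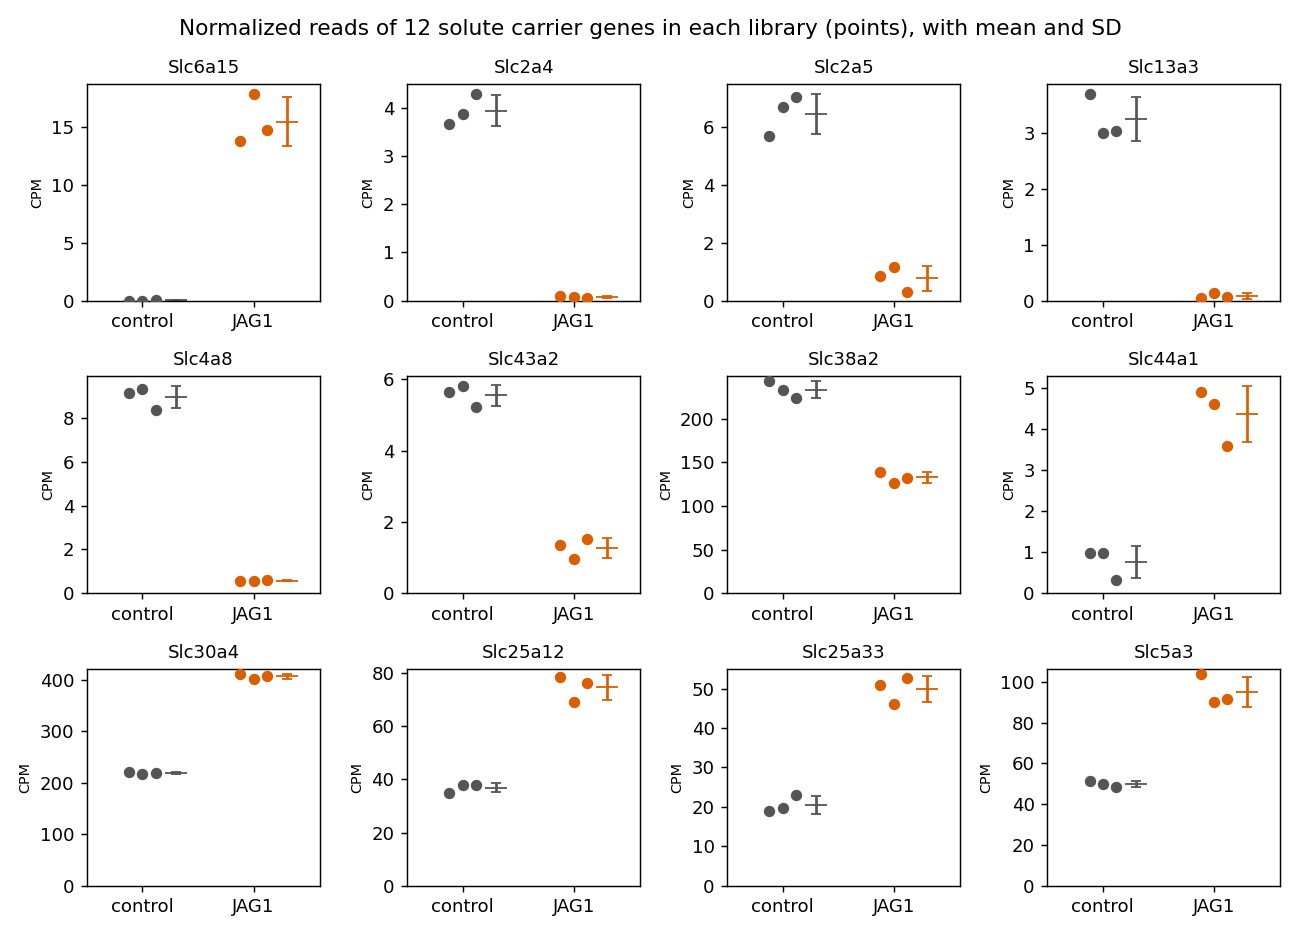
Normalised read counts (y axis, CPM from 0) of 12 solute carrier genes in the 3 control and 3 JAG1 libraries (x axis); points are libraries, and the horizontal marks with bars are the mean and SD. In each panel the groups do not overlap, from Slc6a15 (0.0174 CPM in control, 15.5 CPM in JAG1) to Slc2a4 (3.94 against 0.0764 CPM) and Slc30a4 (219 against 407 CPM).

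Of 12 sugar carriers, 5 were lower and 3 higher. Of 6 hexose carriers of the Slc2 family, not counting Slc2a1 and Slc2a3, which were left out by name, 4 were lower and 0 higher. Over all genes 27.7% were lower, and of the 4 Slc2a4 reached the count limit through control and so had to differ. Slc2a4, the insulin-responsive glucose carrier, had 74, 72 and 82 reads in control and 2, 1 and 1 in JAG1 libraries, a 50.2-fold lower level with a counting interval from 19.3 to 186. Slc2a5, the fructose carrier, stood at 5.68, 6.66 and 7.01 CPM against 0.847, 1.17 and 0.304 CPM, a log2 difference of -3.06 ± 0.29 (SE, edgeR adjusted p = 4.27e-06). Neither gene's groups overlapped, where 30.9% of all genes lay below in this way. Slc2a6 and the urate carrier Slc2a9 fell as well (-1.14 ± 0.27 and -0.72 ± 0.19, SE), whereas Slc2a8 and Slc2a12 were not called at 0.50 ± 0.27 and 0.19 ± 0.11 (SE). The fifth that fell was Slc45a4, a proton-linked carrier, from 42.8 ± 1.94 to 31.7 ± 1.92 CPM (SD, n = 3), but relative to the median of its chromosome 15 it was at 0.10.

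The 3 higher ones were the sugar carrier Slc50a1 (12.2 ± 0.844 to 15.9 ± 0.307 CPM, SD, n = 3), the sodium-glucose cotransporter Slc5a2 (1.02 ± 0.462 to 1.98 ± 0.490 CPM) and the glucose 6-phosphate carrier Slc37a4 of the endoplasmic reticulum (8.05 ± 0.901 to 9.94 ± 0.381 CPM). Slc37a4 was close to the threshold (0.30 ± 0.12, SE, edgeR adjusted p = 0.0473) and lost the call with DESeq2 (adjusted p = 0.122) and when control replicate 2 or any 1 JAG1 library was left out (0.181, 0.0987, 0.0664 and 0.121). Slc5a2 lost it without any 1 library but control replicate 1 (adjusted p from 0.0546 to 0.141). The count of higher sugar carriers was 1 of 12 with DESeq2, without any 1 JAG1 library and without control replicate 2.

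None of 10 carriers of carboxylates and other organic ions was called higher. The 5 lower ones fell by at least 2-fold each, as did 8.49% of all genes. Of these, Slc13a3 and Slc22a18 reached the count limit through control alone, and Slc16a1 and Slc16a3 were left out of the group by name. The summed level of the 10 was 147 ± 0.956 CPM in control and 77.8 ± 3.54 CPM in JAG1 cells (SD, n = 3). Slc13a3, a sodium-coupled carrier of dicarboxylates such as succinate and N-acetylaspartate known from astrocytes, had 75, 56 and 58 reads in control and 1, 2 and 1 in JAG1 libraries, a 41.6-fold lower level with a counting interval from 16.0 to 154. The orphan carrier Slc22a23 stood at 59.4, 58.9 and 61.5 CPM against 26.1, 26.1 and 27.0 CPM, a log2 difference of -1.18 ± 0.06 (SE, edgeR adjusted p = 5.34e-08). The spread within its groups was small beside this difference. Of the monocarboxylate family, Slc16a6 fell from 50.0 ± 3.58 to 22.1 ± 2.80 CPM and Slc16a13 from 4.52 ± 0.201 to 1.74 ± 0.260 CPM (SD, n = 3). The organic cation carrier Slc22a18 had 38, 46 and 37 reads in control and 0, 4 and 0 in JAG1 libraries, so its fitted difference of -4.61 became -8.31 without JAG1 replicate 2. The carnitine carrier Slc22a5 was level (1.76 ± 0.538 and 1.74 ± 0.184 CPM) and was not called.

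Of 24 metal carriers 12 were higher and 6 lower (50% and 25%, against 27.4% and 27.7% of all genes), and none of the rises reached 2-fold. Leaving out 1 library gave from 9 higher and 4 lower (without JAG1 replicate 1) to 13 and 7 (without control replicate 3). The summed level of the 24 was 1345 ± 3.62 CPM in control and 1658 ± 36.6 CPM in JAG1 cells (SD, n = 3). The Slc30 family moves zinc out of the cytosol into vesicles or out of the cell, and the Slc39 family moves it in. Of 7 Slc30 genes 4 rose and 0 fell, and of 10 Slc39 genes 5 rose and 3 fell. Without 1 library, 4 or 5 Slc30 genes were higher, and 1 was lower without JAG1 replicate 3, control replicate 1 or control replicate 3. Slc30a7 was not called (-0.27 ± 0.11, SE, edgeR adjusted p = 0.0569), but each of its JAG1 libraries lay below every control library. The Slc39 count rested on calls near the threshold: without 1 library it ranged from 2 higher and 1 lower (JAG1 replicate 1) to 5 and 3 (control replicate 3), with 3 and 1 without JAG1 replicate 3, 3 and 2 without control replicate 1, and 4 and 1 without JAG1 replicate 2 or control replicate 2. Slc30a4, which loads zinc into vesicles, stood at 221, 217 and 219 CPM in control and 412, 401 and 408 CPM in JAG1 libraries, a log2 difference of 0.90 ± 0.04 (SE, edgeR adjusted p = 2.71e-08). The zinc exporter of the cell surface, Slc30a1, rose from 9.64 ± 0.994 to 14.5 ± 0.871 CPM, and Slc30a9 from 34.7 ± 1.97 to 49.2 ± 1.51 CPM (SD, n = 3). The surface importer Slc39a1 rose from 235, 228 and 233 to 343, 321 and 338 CPM (0.52 ± 0.05, SE, edgeR adjusted p = 3.62e-06). Genes for both zinc export and import were thus among the rises. Slc39a6 went down, from 107 ± 8.62 to 83.6 ± 2.52 CPM, and the Golgi carrier Slc39a7 rose by 0.19 ± 0.05 (SE), a call lost without JAG1 replicate 1 (adjusted p = 0.0568).

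Iron carriers moved in both directions. Slc11a2, which brings ferrous iron into the cytosol, stood at 120, 113 and 106 CPM in control and 73.4, 70.9 and 75.6 CPM in JAG1 libraries (-0.63 ± 0.06, SE, edgeR adjusted p = 7.27e-06). Slc40a1, ferroportin, the iron exporter of the cell surface, had 89 reads over the control libraries and 5 over the JAG1 libraries, a 15.7-fold lower level with a counting interval from 6.47 to 49.4. The mitoferrins, which carry iron into mitochondria and were counted with the mitochondrial carriers, rose: Slc25a37 from 119, 108 and 96.8 to 173, 170 and 158 CPM (0.63 ± 0.08, SE) and Slc25a28 from 14.7, 17.8 and 19.3 to 33.5, 37.6 and 32.1 CPM (1.00 ± 0.11, SE). For these 4 genes the groups did not overlap, where 31.1% of all genes lay above and 30.9% below in this way. Slc40a1 reached the count limit through control and so had to differ. Slc11a2 lies on chromosome 15 and Slc25a28 on chromosome 19, where most genes moved the same way, and relative to the medians of these chromosomes they were at -0.10 and 0.39. The copper carriers Slc31a1 and Slc31a2 rose by 0.26 ± 0.07 and 0.80 ± 0.20 (SE), and of the magnesium carriers Slc41a1 rose by 0.26 ± 0.09 (SE, lost without JAG1 replicate 2 or 3 or control replicate 1 or 2, adjusted p from 0.0519 to 0.106) while Slc41a3 fell from 5.56 ± 0.313 to 2.57 ± 0.244 CPM (SD, n = 3).

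**Figure D3:**
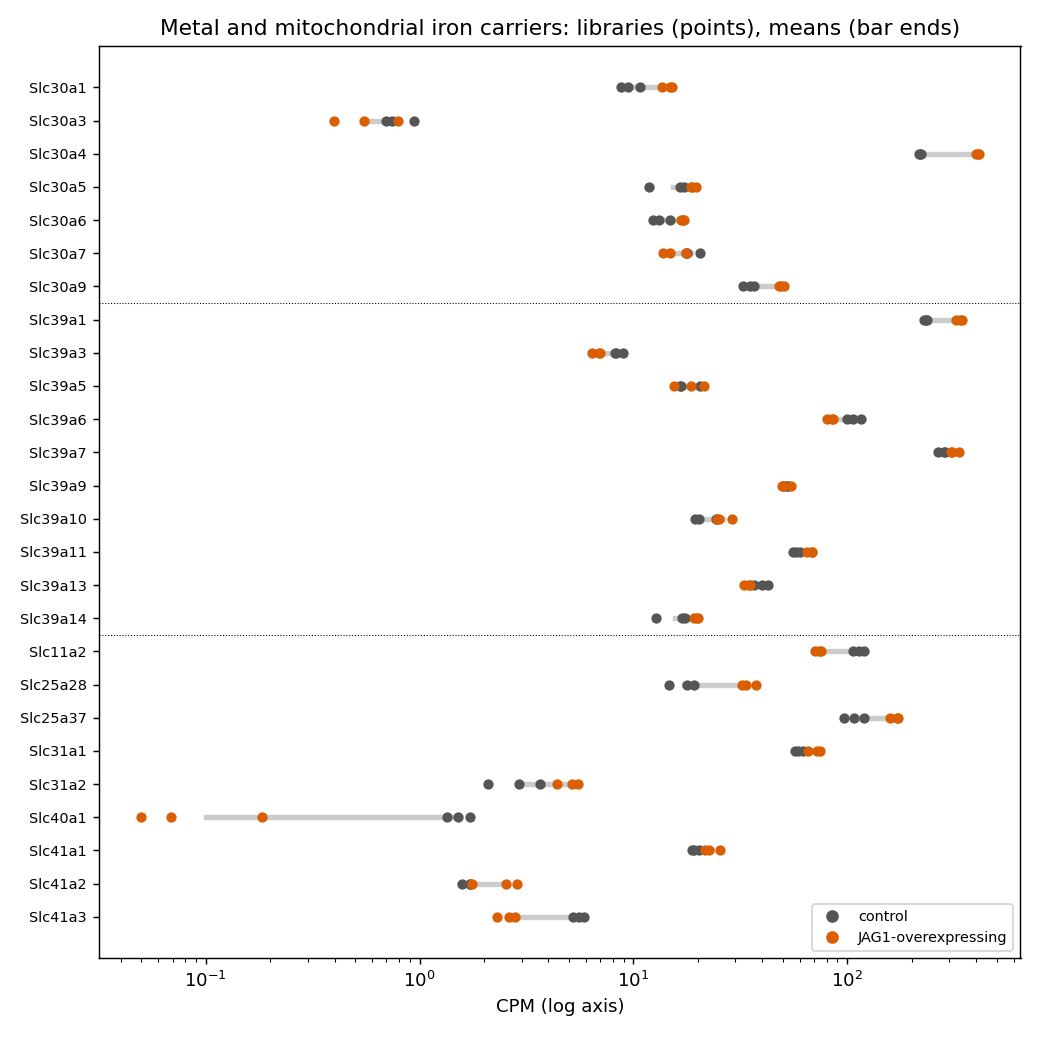
Normalised read counts (x axis, CPM, log axis) of the 24 metal carriers and the mitochondrial iron carriers Slc25a28 and Slc25a37 (y axis, the Slc30 family above, Slc39 in the middle, others below); points are libraries and the ends of each grey bar are the group means. Slc30a4 (219 and 407 CPM) shows the widest gap among the zinc carriers, and Slc40a1 (1.53 and 0.1 CPM) among the iron carriers.

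The 36 mitochondrial carriers of the Slc25 family, which exchange metabolites across the inner membrane, were the largest group, with 12 higher and 9 lower. The ADP/ATP carriers went opposite ways. Slc25a4, the form typical of heart and muscle, stood at 903, 948 and 930 CPM in control and 741, 803 and 734 CPM in JAG1 libraries (-0.29 ± 0.05, SE, edgeR adjusted p = 0.000618). Slc25a5, the form of dividing cells, stood at 288, 439 and 499 CPM against 532, 582 and 568 CPM (0.46 ± 0.15, SE, edgeR adjusted p = 0.0226). Control replicate 1 was low for Slc25a5, and without JAG1 replicate 2 or 3 the call was lost (adjusted p = 0.0769 and 0.0687). The mitochondrial phosphate carrier Slc25a3 was not called (419 ± 7.30 and 440 ± 4.09 CPM, SD, n = 3).

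Both aspartate-glutamate carriers, which serve the malate-aspartate shuttle, rose: Slc25a12 from 35.0, 37.9 and 37.8 to 78.4, 69.2 and 76.4 CPM (1.02 ± 0.07, SE, edgeR adjusted p = 4.06e-07) and Slc25a13 from 66.4, 64.0 and 70.1 to 89.8, 81.7 and 95.7 CPM (0.41 ± 0.07, SE, edgeR adjusted p = 0.000466). The oxoglutarate carrier of the same shuttle, Slc25a11, was not called (109 ± 10.7 and 103 ± 1.06 CPM, SD, n = 3). The largest rise of the family was that of Slc25a33, a carrier of pyrimidine nucleotides, from 18.9, 19.6 and 23.1 to 51.0, 46.1 and 52.7 CPM (1.28 ± 0.09, SE, edgeR adjusted p = 5.05e-07). Among the falls, the dicarboxylate carrier Slc25a10 went from 30.9 ± 1.47 to 19.1 ± 0.599 CPM, the carnitine-acylcarnitine carrier Slc25a20 from 18.2 ± 0.889 to 11.2 ± 0.894 CPM, and the NAD carrier Slc25a51 from 201 ± 7.56 to 163 ± 5.43 CPM (SD, n = 3). The citrate carrier Slc25a1 was level at 24.1 ± 1.30 and 23.4 ± 0.660 CPM.

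Of 20 carriers of sodium, potassium, calcium, protons, chloride and bicarbonate, 9 were lower and 5 higher. All 6 members of the Slc4 family, known for bicarbonate carriers, were called, 4 lower and 2 higher. Of the lower ones, Slc4a8 and Slc4a4 reached the count limit through control and so had to differ. They had 11, 8 and 10 reads, and 10, 9 and 6 reads, in the JAG1 libraries. Slc4a8, a sodium-driven chloride-bicarbonate exchanger, stood at 9.14, 9.34 and 8.37 CPM in control and 0.548, 0.550 and 0.607 CPM in JAG1 libraries, a log2 difference of -3.96 ± 0.18 (SE, edgeR adjusted p = 1.52e-08). Slc4a4, the sodium-bicarbonate cotransporter typical of astrocytes, fell from 2.12 ± 0.479 to 0.494 ± 0.127 CPM (SD, n = 3). Against these, the sodium-bicarbonate cotransporter Slc4a7 rose from 31.9 ± 2.80 to 49.0 ± 1.11 CPM and the anion exchanger Slc4a2 from 22.3 ± 3.44 to 33.2 ± 2.72 CPM. The family thus held both rises and falls. The other lower ones, Slc4a3 and Slc4a11, lost their calls when some libraries were left out, Slc4a3 without control replicate 2 or JAG1 replicate 2 or 3 (edgeR adjusted p = 0.0685, 0.0506 and 0.0537) and Slc4a11 without control replicate 1 or any 1 JAG1 library (0.144, 0.0533, 0.0688 and 0.0809), so that 2 lower carriers were left without JAG1 replicate 2 or 3, and the 1 low control value of Slc4a3, 1.52 CPM, lay below the highest JAG1 value of 1.55 CPM.

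Slc12a2, which loads cells with sodium, potassium and chloride, was the most abundant ion carrier and stood at 195, 184 and 170 CPM against 134, 143 and 130 CPM (-0.43 ± 0.06, SE, edgeR adjusted p = 0.000165). The potassium-chloride exporters differed: Slc12a4 rose (34.9 ± 2.54 to 50.5 ± 2.81 CPM) and Slc12a7 fell (16.7 ± 0.967 to 12.8 ± 0.791 CPM, SD, n = 3). Slc24a3, a sodium-calcium exchanger that also needs potassium, fell from 20.4, 18.6 and 17.7 to 8.82, 7.36 and 8.81 CPM (-1.18 ± 0.11, SE, edgeR adjusted p = 3.49e-06). The endosomal sodium-proton exchanger Slc9a9 rose from 0.598 ± 0.400 to 1.84 ± 0.313 CPM (SD, n = 3). Slc5a5, the iodide carrier near the count limit, was lower (-2.13 ± 0.49, SE), and Slc26a6 was not called (0.08 ± 0.56, SE).

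Of 5 carriers of neurotransmitters, creatine and osmolytes 4 were higher. Slc5a3, which takes up the osmolyte myo-inositol, stood at 51.5, 50.0 and 48.6 CPM against 104, 89.9 and 91.6 CPM (0.93 ± 0.07, SE, edgeR adjusted p = 7.45e-07). The vesicular monoamine carrier Slc18a2 rose from 1.38 ± 0.172 to 3.99 ± 0.241 CPM (SD, n = 3). The taurine carrier Slc6a6, the most abundant of the group, stood at 480, 574 and 587 CPM against 658, 639 and 630 CPM, and both it (0.23 ± 0.07, SE) and the creatine carrier Slc6a8 (0.21 ± 0.07, SE) lost their calls without JAG1 replicate 1 (edgeR adjusted p = 0.0600 and 0.0974), which left 2 of the 4. Slc6a8 also lost it without control replicate 2 or 3 (0.0938 and 0.0686). The glycine carrier Slc6a9, known from astrocytes, fell from 57.7, 51.2 and 50.7 to 24.1, 24.2 and 27.4 CPM (-1.08 ± 0.08, SE, edgeR adjusted p = 8.77e-07). It was the only carrier of this group that went down.

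All 3 phosphate and sulfate carriers were higher. The phosphate carrier Slc20a1 stood at 247, 246 and 220 CPM against 336, 300 and 306 CPM (0.40 ± 0.06, SE, edgeR adjusted p = 0.000231). Its relative Slc20a2 stood at 34.1, 69.7 and 78.3 CPM against 86.7, 115 and 90.1 CPM, with control replicate 1 far below the others (0.68 ± 0.23, SE, edgeR adjusted p = 0.0279), and lost its call without JAG1 replicate 2 or 3 (0.121 and 0.0562) and with DESeq2 (0.114). The sulfate carrier Slc26a2 rose by 0.39 ± 0.12 (SE) and lost its call without JAG1 replicate 3 (adjusted p = 0.0734), which left 1 of the 3. Of 6 carriers of lipids, choline and acetyl-CoA 3 were higher and 0 lower. The choline carrier Slc44a1 stood at 0.988, 0.966 and 0.314 CPM against 4.88, 4.61 and 3.58 CPM (2.52 ± 0.31, SE, edgeR adjusted p = 3.88e-05). The acetyl-CoA carrier Slc33a1 and the fatty acid carrier Slc27a4 rose by 0.32 ± 0.09 and 0.28 ± 0.09 (SE) and lost their calls without JAG1 replicate 3 (adjusted p = 0.0505 and 0.104), Slc27a4 also without control replicate 2 (0.0892).

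Among the carriers of vitamins and heme 4 of 8 were higher and 3 lower. The vitamin C carriers Slc23a1 and Slc23a2 rose, Slc23a2 from 16.3, 23.5 and 23.1 to 37.1, 41.5 and 36.9 CPM (0.88 ± 0.12, SE, edgeR adjusted p = 0.000118). The thiamine carrier Slc19a2 stood at 16.1, 30.8 and 35.1 CPM against 47.0, 48.4 and 53.8 CPM (0.87 ± 0.21, SE, edgeR adjusted p = 0.00442), again with control replicate 1 the lowest. The folate carrier Slc19a1 was higher (0.24 ± 0.09, SE), but its groups overlapped (37.4 CPM in JAG1 replicate 2, 39.1 CPM in control replicate 3). The proton-coupled folate carrier Slc46a1 was lower (-1.64 ± 0.46, SE), with 25, 14 and 19 reads against 3, 8 and 5. It reached the count limit through control and so had to differ. Slc46a1 lost its call without JAG1 replicate 1 (edgeR adjusted p = 0.0561). Slc19a1 lost it without JAG1 replicate 1 or 3 or control replicate 1 or 2 (from 0.0688 to 0.189). Slc48a1, which returns heme from lysosomes to the cytosol, fell from 469, 431 and 398 to 248, 281 and 264 CPM (-0.71 ± 0.07, SE, edgeR adjusted p = 5.28e-06). The riboflavin carrier Slc52a2 was close to the threshold (-0.29 ± 0.11, SE, edgeR adjusted p = 0.0414), and leaving out JAG1 replicate 1 ended its call (0.176), as did leaving out JAG1 replicate 2, control replicate 1 or control replicate 3 (0.0543, 0.0637 and 0.0918). Without JAG1 replicate 1 the count of lower carriers in this group was 1.

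Some symbols of this form name proteins that carry nothing themselves. The scaffolds Slc9a3r1 and Slc9a3r2, which hold sodium-proton exchangers and other membrane proteins near the actin skeleton, both rose. Slc9a3r1 stood at 19.9, 19.8 and 22.2 CPM against 43.8, 48.2 and 42.7 CPM (1.12 ± 0.08, SE), and Slc9a3r2 at 0.988, 0.966 and 1.57 CPM against 15.7, 13.8 and 17.2 CPM (3.72 ± 0.18, SE, edgeR adjusted p = 2.21e-08). The transcribed pseudogenes Slc22a13b-ps and Slc2a4rg-ps fell (-1.97 ± 0.35 and -0.90 ± 0.26, SE).

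Members on chromosomes 15 and 19 are set out apart, because most tested genes of these chromosomes moved 1 way. On chromosome 15, 75.4% of the 459 genes tested were lower and 6.97% higher, and the median log2 difference was -0.53. On chromosome 19, 74.2% of 422 genes were higher and 7.35% lower, and the median was 0.61. Of 9 carriers on chromosome 15, 8 were lower: Slc4a8, Slc38a2, Slc48a1, Slc38a1, Slc11a2, Slc45a4, Slc25a17 and Slc52a2. Only Slc25a32 was not called there (0.29 ± 0.13, SE). Taken relative to the chromosome's median, Slc4a8 was at -3.43, Slc38a2 at -0.28, Slc48a1 at -0.18, Slc38a1 at -0.10 and Slc11a2 at -0.10, and Slc45a4, Slc25a17 and Slc52a2 turned positive at 0.10, 0.10 and 0.25. Of 6 carriers on chromosome 19, Slc18a2, Slc29a2 and Slc25a28 were higher, Slc15a3 and Slc25a45 lower and Slc3a2 not called. Slc25a45 lost its call without JAG1 replicate 1 or 3 or control replicate 1 or 2 (edgeR adjusted p from 0.0723 to 0.111). Slc18a2 was at 0.92 and Slc29a2 at 0.43 relative to that chromosome's median, and Slc3a2 at -0.58. What moved most genes of these chromosomes was not tested. On all other chromosomes 52 of 150 carriers were higher and 46 lower, where 26.5% of genes were called in each direction.

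**Figure D4:**
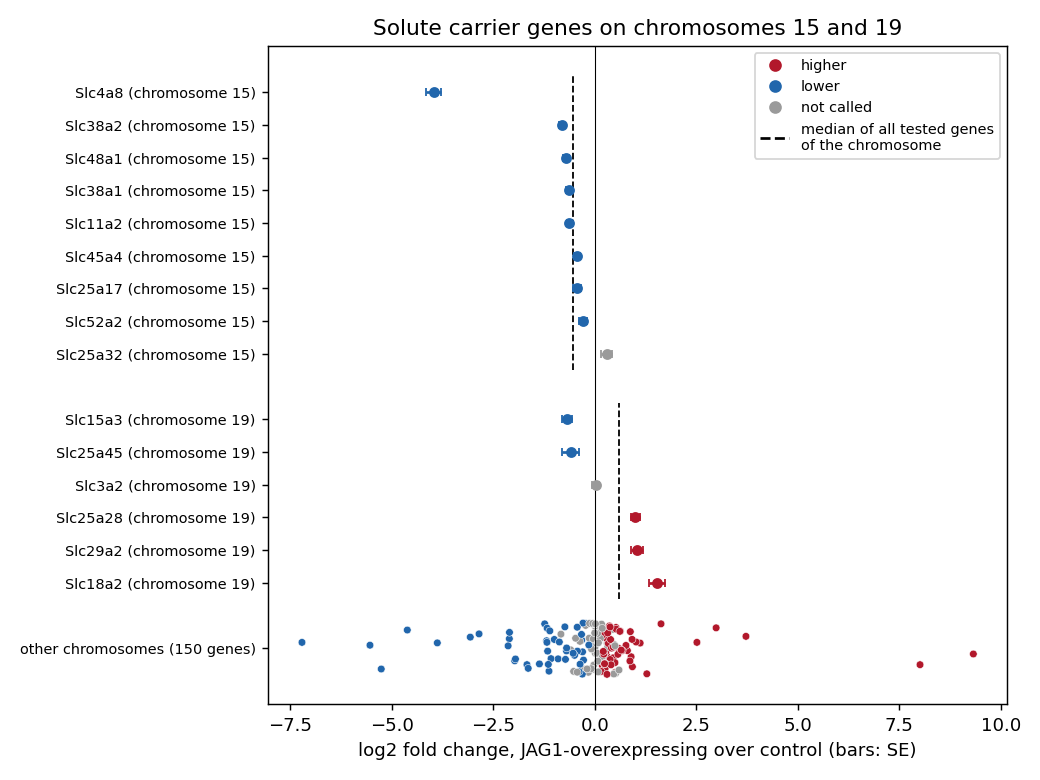
Log2 fold change (x axis, JAG1-overexpressing over control, bars give the SE) of each carrier gene on chromosomes 15 and 19 (y axis, 1 row per gene) and of the 150 carriers elsewhere (bottom row); dashed lines are the medians of all tested genes of each chromosome. On chromosome 15 most carriers lie near the median of -0.53, and Slc4a8, at -3.96, lies far below it.

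Carriers rely on pumps that build ion gradients, on accessory chains and on kinases, and some carriers have other symbols. A list of 103 such genes had 77 tested, and 32 of these rose and 16 fell, where 27.4% and 27.7% of all genes did. Their median log2 difference was 0.13. Of the sodium-potassium pump 3 of 5 genes rose and 1 fell, and of the proton pump 7 of 17 rose and 3 fell. Among the carriers with other symbols, the largest rises were those of the organic anion carriers Slco5a1 (4.83 ± 0.29, SE) and Slco4a1 (1.85 ± 0.08, SE) and of Mfsd2a (1.90 ± 0.13, SE), which takes up lysophospholipids. Slco5a1 had 3, 3 and 5 reads in control and 127, 81 and 78 in JAG1 libraries, so its fold rests on few control reads. Of 4 accessory chains tested, 2 rose and 1 fell. Embigin (Emb), an accessory chain of monocarboxylate carriers, had 267, 270 and 253 reads in control and 4, 1 and 1 in JAG1 libraries. Bsg, another accessory chain, rose from a mean of 265 CPM in control to 346 CPM in JAG1 libraries (0.38 ± 0.05, SE). The calcium pump Atp2b4 fell as well (-2.27 ± 0.25, SE). Of 6 regulatory kinases and ligases tested, 3 rose and 2 fell. The kinase Wnk4, which acts on cation-chloride carriers, fell from a mean of 4.85 to 1.48 CPM (-1.73 ± 0.20, SE), and Sgk1 was also lower (-0.78). Wnk1, Wnk3 and Oxsr1 were higher, with log2 differences of 0.75, 2.76 and 0.64. Wnk3 had 4, 4 and 3 reads in control and 33, 17 and 18 in JAG1 libraries, so its fold also rests on few control reads. Wnk1 went from a mean of 205 CPM in control to 346 CPM in JAG1 libraries.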

How the data were processed

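RNA of 3 control and 3 JAG1-overexpressing libraries was made into QuantSeq 3' mRNA libraries. The authors deposited 1 table per library, with raw read counts per gene symbol and the log2 of a normalized count per the file headers. The submitters' processing notes name Bowtie2, bedtools and edgeR and the builds GRCm38 and mm10, and how reads with several matches were counted is not given in the sources used here. Groups came from the sample labels. The members, gene lists and naming rule were chosen with earlier results of these data known.

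Raw counts of all 23282 rows were filtered (filterByExpr, minimum count 10), which kept 11712 genes and all 166 members, scaled by TMM and tested with edgeR 4.0.16 (R 4.3.3, quasi-likelihood test, no covariate), with Benjamini-Hochberg adjustment over the 11712 genes. The deposited log2 values served only as an alternative, with limma 3.58.1. DESeq2 1.42.0, limma-voom, other scalings and filters, the replicate number as a block, the chromosome median and leaving out each library were the other alternatives. A ratio of 1 to 5 reads in a group has an exact 95% interval, which covers counting error only. Members were named as the 2 largest rises and falls of each substance group (adjusted p under 0.05, mean of at least 2 CPM, no overlap), the most abundant of each group, the rows next to the count limit, the partners of Slc3a2 and GM14085, and genes with 3 or fewer reads in each library of 1 group. Any other member named was chosen after its values were seen. Of the members, 164 matched a RefSeq symbol and 2 a synonym. Promoter sequences are from RefSeq, GRCm38.p6, and the compared transcripts of Slc28a2 and GM14085 are from GENCODE. Protein sequences were not used here. Some members are not reported here.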

Additional observations from a re-analysis of the deposited data

How the results depend on the processing

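Of 55 higher and 56 lower carriers, the other tools, scalings and filters called from 50 to 57 higher and from 48 to 59 lower, with 50 and 48 by DESeq2 and 51 and 59 after upper-quartile scaling. Leaving out 1 library at a time gave from 44 to 55 higher and from 47 to 55 lower, with between 90 and 105 of the 111 calls kept and none reversed. With a limit of at least 2-fold, 11 higher and 25 lower remained. Relative to the median of chromosome 15, Slc45a4 (0.10), Slc25a17 (0.10) and Slc52a2 (0.25) changed sign. Without its members on chromosome 15, a setting chosen after seeing the data, the summed level of the amino acid carriers was 28.5 CPM higher in JAG1 cells in place of 147 CPM lower. Under the other scalings the median log2 fold change of all genes lay between -0.02 and 0.02.

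With the replicate number as a block, 58 carriers were higher and 57 lower, and 6711 genes were called in all in place of 6458. The labels share these numbers between groups, but the deviations of same-numbered libraries correlated at 0.148, 0.0614 and 0.119, so the numbers were not taken as pairs. Every library correlated best with its own number, which is a hint from the data and not the design.

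Carriers with few reads limit the result. Of the 37 with a mean count from 10 to 50, 21 were called, and a group at 0 to 3 reads gives only a wide interval for its fold.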
